A study of Homo sapiens with 18 samples.

Results

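The arrays described here are the 12 of the series' 18 that carried a non-targeting hairpin (shNT), chosen by title as 4 groups of 3. They were MCF10A cells, an established, non-tumorigenic line of human breast epithelium, given ctrl cDNA, YAP/TAZ cDNA, ESR1 cDNA, or YAP/TAZ and ESR1 cDNA together. In all 4 groups the cells had been infected with the shNT lentivirus at a multiplicity of 5, kept for 4 days in 1.5 µg/ml puromycin, rested for 7 days or more, transfected transiently by lipid and grown for 5 days in an estrogen-containing medium. The other 6 arrays carried shLATS1B or shLATS1+2 hairpins with ctrl cDNA. They entered the fit for its estimate of spread, and their levels are given where they bear on a result. In the text the 4 groups are the control, YAP/TAZ, ESR1 and both-cDNA arrays. The quantity of interest is the interaction: on the log2 scale, what adding YAP/TAZ did in the presence of ESR1 cDNA less what it did in its absence. It is 0 where the cDNAs act independently on that scale, and it has the same value with the roles of the cDNAs exchanged.

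YAP (gene YAP1) and TAZ (gene WWTR1) are co-activators without a DNA-binding domain. They reach promoters and enhancers mainly through TEAD factors, and the Hippo kinases LATS1 and LATS2 restrain them by phosphorylation. ESR1 encodes estrogen receptor alpha, a hormone-dependent transcription factor that marks luminal mammary cells and is scarce in basal-like lines such as MCF10A. The design asks whether the transcripts that respond to YAP/TAZ respond otherwise when the receptor is supplied as well.

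Promoter sequences are shown for 4 genes that stand for the clearest groups below, from RefSeq on GRCh38.p14, as 250 bases before to 50 bases after the start. IFIT1 (chr10:89392373-89392672, plus strand) and IFITM1 (chr11:313790-314089, plus strand) are interferon-induced genes that rose with each cDNA, and with both by less than the sum on the log2 scale. CCN2 (chr6:131951323-131951622, minus strand) and CCL20 (chr2:227813592-227813891, plus strand) rose with each cDNA and fell with both. Capitals mark the letters of the interferon-stimulated response element (GAAA, any 2 bases, GAAA) or of the TEAD motif (GGAATG) on either strand.
IFIT1: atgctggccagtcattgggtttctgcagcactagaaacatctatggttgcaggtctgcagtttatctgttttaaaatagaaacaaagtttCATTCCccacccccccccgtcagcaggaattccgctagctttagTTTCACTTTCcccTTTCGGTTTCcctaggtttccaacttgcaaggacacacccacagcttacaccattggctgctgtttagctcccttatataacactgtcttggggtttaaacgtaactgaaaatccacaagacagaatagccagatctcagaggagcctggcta
IFITM1: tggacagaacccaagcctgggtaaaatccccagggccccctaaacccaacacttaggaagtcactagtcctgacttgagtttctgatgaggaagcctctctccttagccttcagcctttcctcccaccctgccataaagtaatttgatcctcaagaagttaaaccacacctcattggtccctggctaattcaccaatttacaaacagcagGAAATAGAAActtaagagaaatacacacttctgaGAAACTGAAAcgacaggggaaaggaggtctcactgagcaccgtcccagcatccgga
CCN2: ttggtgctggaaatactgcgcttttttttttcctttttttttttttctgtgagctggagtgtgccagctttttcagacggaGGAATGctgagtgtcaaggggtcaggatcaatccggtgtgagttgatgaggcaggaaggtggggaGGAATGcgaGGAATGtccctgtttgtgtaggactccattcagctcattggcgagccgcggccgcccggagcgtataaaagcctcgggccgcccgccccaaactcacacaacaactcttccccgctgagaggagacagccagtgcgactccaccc
CCL20: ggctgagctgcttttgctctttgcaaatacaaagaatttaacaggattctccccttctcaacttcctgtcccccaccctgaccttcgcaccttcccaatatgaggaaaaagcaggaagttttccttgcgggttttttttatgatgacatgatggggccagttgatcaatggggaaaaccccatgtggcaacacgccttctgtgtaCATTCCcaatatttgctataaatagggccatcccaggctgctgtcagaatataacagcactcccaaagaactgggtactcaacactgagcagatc
The CCN2 window held the TEAD letters 3 times, and the CCL20 and IFIT1 windows held them once each. Over all genes with a window, 11.6% held them.

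Of 18404 genes, 3512 were called for the interaction, 2098 positive and 1414 negative (limma, adjusted p under 0.05, 3 arrays a group). That is 19.1% of genes tested, 11.4% positive and 7.68% negative. The called genes were sorted by the steps between groups, each called at the same threshold over all genes. In 1281 genes (6.96% of those tested) neither cDNA alone gave a call against the control arrays and both together did. In 583 (3.17%) the step of a cDNA was called in opposite directions without and with the other cDNA. In 304 (1.65%) each cDNA moved the gene in 1 direction, both together moved it in that direction, and the joint change fell short of the sum. These patterns are called only with both cDNAs, reversed and saturated. A further 154 genes (0.837%) were amplified, which means moved 1 way by a single cDNA and further by both than the sum. In 538 (2.92%) no group was called against the control arrays, and 652 (3.54%) had other combinations. The reversed genes had the largest interactions, with a median absolute value of 0.75 and 163 at 1 or more, against 0.49 and 97 for genes changed only with both cDNAs and 0.43 and 43 for saturated genes. The rule for reversal itself favours this, since the interaction is the difference of steps that must be called in opposite directions.

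**Figure D1:**
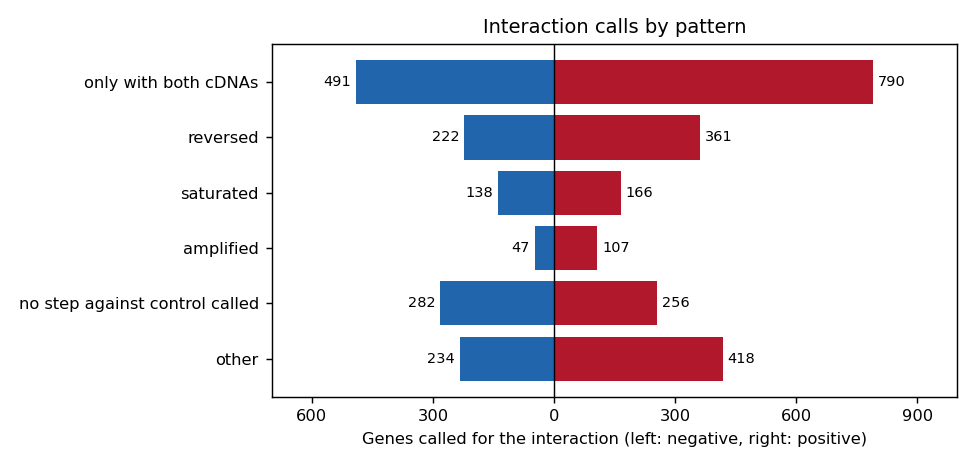
Number of genes called for the interaction in each pattern, with negative interactions to the left and positive to the right; bar labels are gene counts. Genes changed only with both cDNAs form the longest bars, 790 positive and 491 negative.

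Within groups the arrays correlated with r between 0.993 and 0.998 over probe sets. On the second principal component (19.2% of the variance) ESR1 array 1 scored 2.55 and the other ESR1 arrays -20.93 and -22.89. Other groups were spread on it too. Control array 1 scored 22.17 beside 12.37 and 9.69, and both-cDNA array 1 -4.09 beside 7.32 and 8.19. The third shLATS1+2 array scored -17.80 beside -2.51 and -4.81. Without ESR1 array 1 5607 genes were called for the interaction and 1335 were reversed, so both counts rest on how that array is treated. On the first component (47.3%) the both-cDNA arrays scored between 17.8 and 22.7, on the side of the 6 knockdown arrays (9.83 to 18.2), and the other 9 shNT arrays between -23.0 and -10.3. No batch is named in the labels, so for a difference that follows this division alone a batch and the cDNA combination cannot be told apart. Basal epithelial markers were bright in the shNT arrays, with KRT5 at 12.68 in the control and 12.33 in the both-cDNA arrays. Of 20 leukocyte and endothelial markers 11, PTPRC among them (4.48 and 4.44), were under the level of 5.21 (percentile 30 of gene means) taken as near background in every shNT group. Another 4 rose with both cDNAs and 0 fell, where 14.7% of all genes changed each way: CD14 from 9.05 to 11.06, CD68 from 9.62 to 10.58, CSF1R from 6.13 to 6.31 and PECAM1 from 5.73 to 6.01. Their part in the results was not tested.

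Among named genes changed only with both cDNAs the largest interaction was that of SLC6A14, a broad amino acid transporter of the plasma membrane. The pattern compares the shNT groups only, and the knockdown levels are given below. Its log2 intensity was 5.07, 4.99 and 5.16 in the control arrays, 5.26, 4.99 and 5.37 with YAP/TAZ, 5.39, 5.16 and 5.33 with ESR1, and 9.44, 9.65 and 9.60 with both. The 9 shNT arrays without the combination sat near the background level of 5.21, and all 3 with it were far above them. The interaction was 4.14 ± 0.15 (SE; limma, adjusted p = 1.5e-11). CYP24A1, the enzyme that inactivates vitamin D, went the same way. It read 4.81, 5.07 and 5.00 in the control arrays and 9.04, 9.17 and 9.17 with both cDNAs, and its 6 single-cDNA arrays read 4.89 to 5.12. Its interaction was 4.11 ± 0.14 (adjusted p = 5e-12). The control and single-cDNA levels of both genes are near background, so the fitted interactions are neither exact sizes nor bounds.

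The other leading members were of the same pattern at brighter levels. DMBT1, a secreted glycoprotein of epithelial surfaces, had an interaction of 2.73 ± 0.19, and the prostaglandin synthase PTGS1 had 2.39 ± 0.20. Both had negative single-cDNA differences that did not pass, some of them narrowly. DMBT1 had -0.45 with YAP/TAZ (limma, adjusted p = 0.0597) and -0.28 with ESR1 (adjusted p = 0.185). PTGS1 had -0.47 (adjusted p = 0.059) and -0.38 (adjusted p = 0.073). The missing calls do not show that a single cDNA left these genes unchanged. CYP26B1, which degrades retinoic acid, had 2.18 ± 0.15 with single-cDNA differences of 0.08 and 0.03. CRAT, a carnitine acetyltransferase, had 1.83 ± 0.14. ELF3, an epithelial transcription factor of the luminal list, had 1.74 ± 0.16, and IGFBP4, which binds insulin-like growth factors and is on the estrogen response list, had 1.68 ± 0.19. The difference of both cDNAs from control was 1.99 ± 0.11 for ELF3 and 1.58 ± 0.13 for IGFBP4.

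Among genes that fell only with both cDNAs the leading interaction was that of PLD5, of the phospholipase D family, at -1.67 ± 0.15 (limma, adjusted p = 5.7e-07). Its values were 8.38, 8.51 and 8.39 in the control arrays, 8.41, 8.37 and 8.53 with YAP/TAZ, 8.88, 8.63 and 8.55 with ESR1, and 6.85, 7.17 and 7.04 with both. The both-cDNA arrays lay below all 9 other shNT arrays. HSD17B2, which oxidises estradiol to estrone, had -1.58 ± 0.15 and fell from control by 1.43 on the log2 scale. FAP, a cell-surface protease, had -1.56 ± 0.21 and fell to 4.80, near background. DSEL, related to the dermatan sulfate epimerase, had -1.53 ± 0.10. Also named by the rule were RNVU1-15 (-1.67 ± 0.40) and SCARNA9L (-1.50 ± 0.37), small nuclear RNA genes with wide spread between arrays. An absolute interaction of 1 was reached by 36 of these 491 genes and by 61 of the 790 on the positive side, and the median absolute interactions were 0.48 and 0.50.

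The combination did not stand alone in these levels. In 612 of the 1281 genes changed only with both cDNAs, the 3 both-cDNA and 6 knockdown arrays all lay beyond the other 9 arrays. Over all genes tested that share was 7.37%. CYP24A1 had a mean of 9.13 with shLATS1B and 8.39 with shLATS1+2, beside 9.13 with both cDNAs, and HSD17B2 at 5.53 and 5.59 beside 6.05. SLC6A14 was intermediate, at 7.11 and 6.17 beside 9.56. In 487 of the genes the both-cDNA arrays lay beyond all 15 others, a share that is 8.35% over all genes tested. The patterns were defined without the knockdown arrays but with the 12 others, so these counts describe the genes and carry no test.

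**Figure D2:**
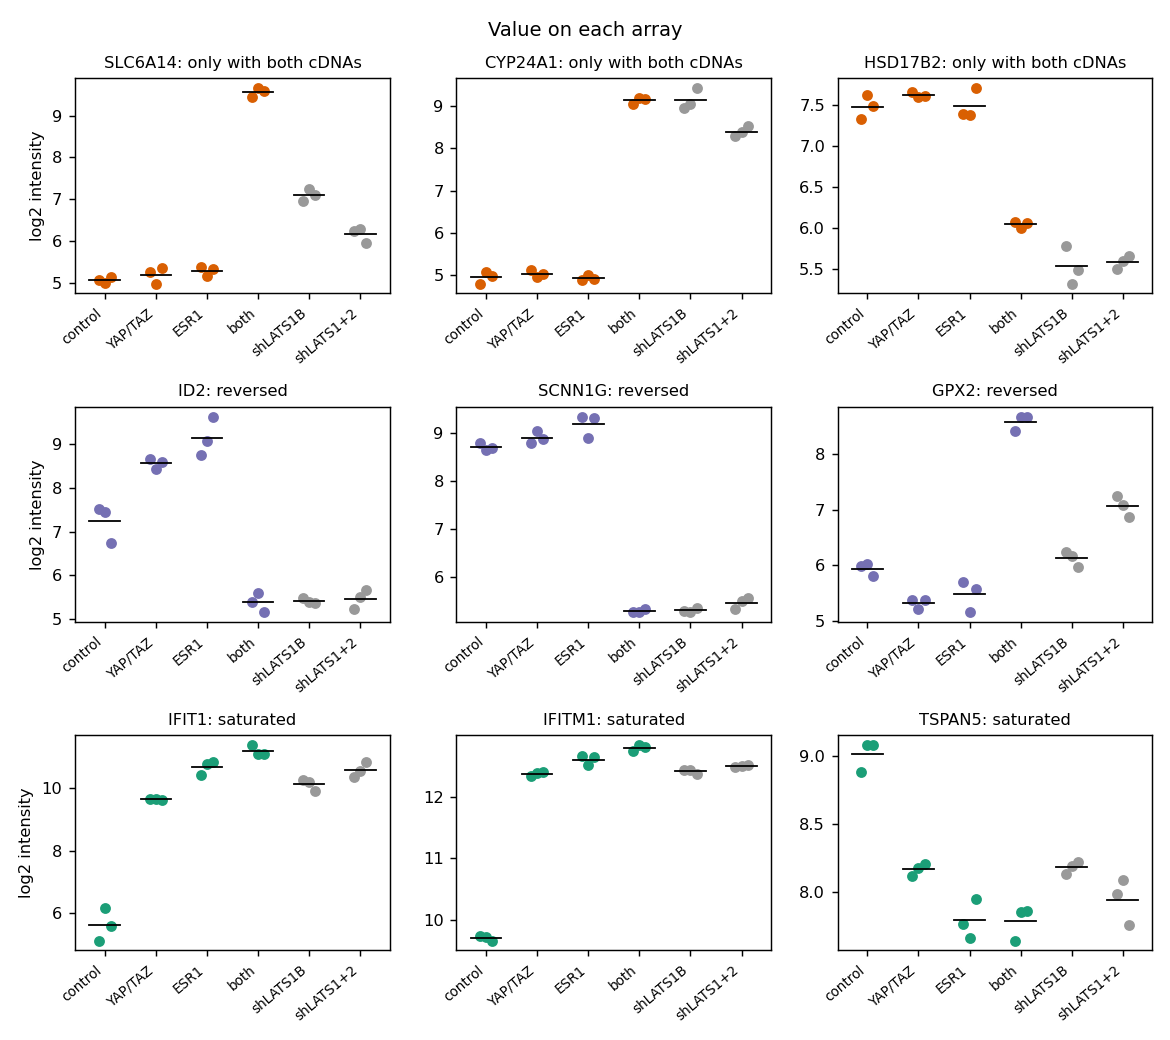
log2 intensity on each array for 3 genes of each pattern, with a line at each group mean; shNT arrays are coloured by pattern and the shLATS1B and shLATS1+2 arrays, which received ctrl cDNA, are grey. Vertical axes differ between panels and do not start at 0. SLC6A14 is near 5 on the 9 shNT arrays without the combination, near 9.56 with it, and between them on the knockdown arrays (means 7.11 and 6.17). ID2 rises with each cDNA and falls with both.

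Reversal was led by ID2, an inhibitor of basic helix-loop-helix transcription factors. ID2 read 7.52, 7.45 and 6.75 in the control arrays, 8.66, 8.43 and 8.59 with YAP/TAZ, 8.75, 9.06 and 9.63 with ESR1, and 5.39, 5.60 and 5.16 with both. All 6 single-cDNA arrays lay above the control arrays and all 3 both-cDNA arrays below them. YAP/TAZ raised it by 1.32 ± 0.21 on the control background (limma, adjusted p = 0.00059) and lowered it by 3.77 ± 0.21 on the ESR1 background (log2 change -3.77, adjusted p = 1.4e-09). The estimates of the YAP/TAZ step share no array. The interaction was -5.09 ± 0.29, and since the both-cDNA level is close to background it is not an exact size. CCL20, a chemokine for lymphocytes and dendritic cells, read 7.25, 7.53 and 7.68 in the control arrays, 9.06, 8.81 and 8.98 with YAP/TAZ, 8.73, 9.31 and 9.40 with ESR1, and 6.21, 5.56 and 6.03 with both. Its interaction was -4.67 ± 0.27.

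The same order held for RGS2, a brake on G-protein signalling (interaction -4.64 ± 0.26), the sulfate transporter SLC26A2 (-3.99 ± 0.10) and the matrix protein FN1 (-3.79 ± 0.13). FN1 read 8.80, 8.38 and 8.52 in the control arrays, 10.08, 10.17 and 10.21 with YAP/TAZ, 9.96, 9.81 and 9.69 with ESR1, and 7.48, 7.68 and 7.68 with both. Each single cDNA put it above every control array and the combination below. SCNN1G, the gamma chain of the epithelial sodium channel, differed in kind. Its rise with ESR1 alone was small (0.48 ± 0.096, adjusted p = 0.002) and that with YAP/TAZ did not pass (0.19, adjusted p = 0.33), while both cDNAs took it from 8.72 to 5.29. Its interaction of -4.10 ± 0.14 is therefore mostly a fall with both. The level of 5.29 is near background, so the size of that fall is not exact.

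On the other side stood genes that fell with a single cDNA and rose with both. GPX2, a glutathione peroxidase of epithelia, read 5.98, 6.02 and 5.81 in the control arrays, 5.37, 5.21 and 5.38 with YAP/TAZ, 5.70, 5.16 and 5.58 with ESR1, and 8.41, 8.67 and 8.65 with both. Its single-cDNA falls were shallow beside the rise, and the interaction was 3.71 ± 0.18 (limma, adjusted p = 3.5e-10). AKR1B10, an aldo-keto reductase, had 3.24 ± 0.21. KRT15, a keratin of basal cells, had 3.20 ± 0.18, with values of 8.55, 8.35 and 8.21 in the control arrays, 7.87, 7.60 and 7.68 with YAP/TAZ, 7.65, 7.06 and 7.34 with ESR1, and 9.77, 9.98 and 9.93 with both. TSPAN7, a tetraspanin, had 2.83 ± 0.15, and FGFBP1, a carrier of fibroblast growth factors, had 2.70 ± 0.10. FGFBP1 fell by 1.24 with YAP/TAZ and dropped by 1.11 with ESR1, and stood 0.34 above control with both. CLU, a secreted chaperone, had 2.69 ± 0.16.

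Of the 583 reversed genes, 310 met the rule through the YAP/TAZ step and 487 through the ESR1 step, 214 through both steps. With both cDNAs 231 ended called on the other side of the control level, 289 were not called against the control arrays, and 63 stayed on the side of the single cDNA. RERG, a small GTPase of the estrogen response list, is of the last kind. It rose by 1.02 with YAP/TAZ and 1.26 with ESR1, stood 1.04 above control with both, and its YAP/TAZ step on the ESR1 background was -0.22 ± 0.077 (adjusted p = 0.041). In 161 reversed genes (27.6%) the both-cDNA and knockdown arrays lay together beyond the other 9, beside 7.37% of all genes tested. The pattern was defined with the 12 shNT arrays, so this count too carries no test. ID2 had means of 5.41 and 5.46 in the knockdown groups beside 5.38 with both cDNAs, and SCNN1G 5.30 and 5.46 beside 5.29. All of these are close to the background level of 5.21, so their closeness is no measure of equal expression.

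Reversal was not the rule for a cDNA's step. Among all genes whose YAP/TAZ step was called on both backgrounds, 476 kept the direction and 310 turned. For the ESR1 step, 1072 kept it and 487 turned. Across the 18404 genes, which are not independent replicates, the YAP/TAZ step on the control background and that on the ESR1 background correlated with r = 0.03 (Spearman rho -0.0044), and the ESR1 steps with r = 0.13 (rho 0.051). The members of each pair share no array. The steps called 7.00% of genes for YAP/TAZ on the control background and 29.1% on the ESR1 background, 18.9% for ESR1 on the control background and 22.7% on the YAP/TAZ background, and 29.4% for both cDNAs against control.

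**Figure D3:**
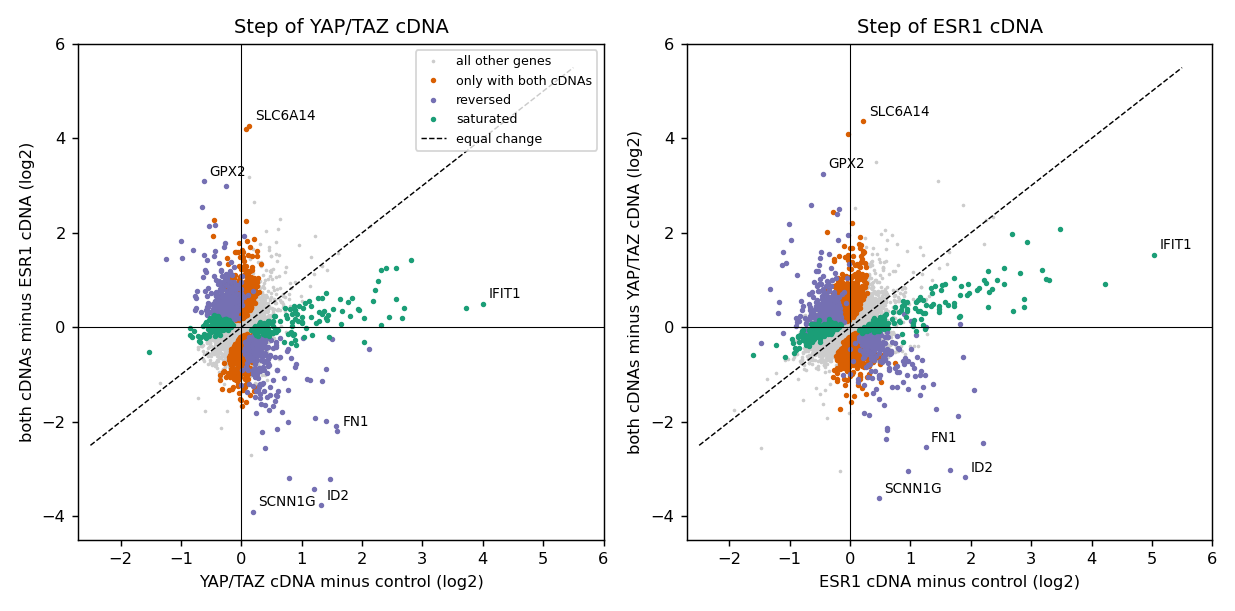
Each gene's change with a cDNA on the control background (horizontal, log2) against its change with the same cDNA on the background of the other (vertical, log2), for YAP/TAZ (left) and ESR1 (right); each point is a gene, coloured by pattern, and the dashed line marks equal change. Reversed genes such as ID2 (1.32 and -3.77 for YAP/TAZ) lie in the opposite quadrants, saturated genes such as IFIT1 (4.00 and 0.50) lie along the horizontal axis, and genes changed only with both cDNAs lie along the vertical.

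The called members of the YAP/TAZ target list were mostly reversed. Of 26 members measured, 10 had a called negative and 4 a called positive interaction (38.5% and 15.4%, beside 7.68% and 11.4% of all genes). The list median was -0.15 where all genes tested had 0.00022. Of the 14 called members 8 were reversed. CCN1, a matricellular growth regulator, read 7.49, 7.58 and 7.84 in the control arrays, 8.87, 8.64 and 8.65 with YAP/TAZ, 8.67, 8.76 and 8.96 with ESR1, and 7.74, 7.66 and 7.72 with both. Each cDNA raised it and the combination left it within the range of the control arrays (interaction -2.17 ± 0.12; limma, adjusted p = 3.1e-09). CCN2, its relative, read 8.23, 8.19 and 8.33, then 8.90, 8.84 and 8.79, then 8.65, 8.88 and 8.69 in the control, YAP/TAZ and ESR1 arrays, and 7.95, 7.83 and 7.70 with both, below every control array (-1.51 ± 0.10). EDN1, the vasoactive peptide endothelin, had -1.54 ± 0.13. ANKRD1 (-1.24), F3, the tissue factor (-1.18), GADD45B (-0.88) and AMOTL2 (-0.88) were reversed in the same direction. AXL, a receptor tyrosine kinase, was reversed the other way (0.90).

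Other targets were amplified. TGM2, a transglutaminase, rose by 0.45 with YAP/TAZ, 0.70 with ESR1 and 2.40 with both, an interaction of 1.25 ± 0.12. TGFB2, a growth factor ligand, had 1.11. Of the 26 targets, 9 rose and 1 fell with YAP/TAZ alone, where 3.16% of all genes rose and 3.84% fell. With ESR1 alone 11 rose and 3 fell (7.04% and 11.9% of all genes), and with both 8 rose and 7 fell (14.7% of all genes each way). Without ESR1 array 1 the called positive interactions of the list went from 4 to 7.

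Saturation was the pattern of interferon-induced genes. Of 40 members of the interferon response list measured, 31 had a called negative interaction, all of them saturated, and 1 a positive one. That is 77.5% and 2.5% of the list, beside 7.68% and 11.4% of all genes. The list median was -1.0. IFIT1, which binds viral RNA, read 5.14, 6.17 and 5.61 in the control arrays, 9.66, 9.65 and 9.63 with YAP/TAZ, 10.42, 10.78 and 10.84 with ESR1, and 11.37, 11.10 and 11.08 with both. Each cDNA alone put it at least 3 units above every control array, and the both-cDNA arrays lay above all of these. YAP/TAZ changed it by 4.00 ± 0.19 on the control background and by 0.50 ± 0.19 on the ESR1 background (limma, adjusted p = 0.066). ESR1 changed it by 5.04 on the control background and by 1.54 ± 0.19 on the YAP/TAZ background (adjusted p = 1.8e-05), and the interaction was -3.50 ± 0.28. OAS2, a synthetase that senses double-stranded RNA, had -3.32 ± 0.16, with YAP/TAZ steps of 3.72 ± 0.12 and 0.40 ± 0.12 and ESR1 steps of 4.23 and 0.91 ± 0.12. IFITM1, a membrane protein that blocks virus entry, read 9.74, 9.73 and 9.67, then 12.33, 12.38 and 12.39, then 12.66, 12.51 and 12.63, and 12.74, 12.83 and 12.80 with both. Its interaction was -2.46 ± 0.064. The highest value of any probe set in the series was 13.75, which does not tell how this probe set reads near its upper range. That was not tested.

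The joint change did not fall short of the log2 sum to the same degree in all interferon genes. On the linear scale, added after the data had been seen, IFIT1 with both cDNAs reached 0.971 of the sum of the single changes added to control. IFI44 had -2.35 ± 0.22, SAMD9L -2.29 ± 0.12 and IFI44L -2.27 ± 0.21. RSAD2 rose by 2.81 and 3.47 with the single cDNAs and 4.90 with both (-1.39). IFIT2, a close relative of IFIT1 picked out after its values were seen, rose by 2.13, 2.25 and 4.40, an interaction of 0.029 (adjusted p = 0.91). RTP4 was the member changed only with both cDNAs (0.68). In the antigen presentation list 4 of 18 members were saturated, where 1.65% of all genes were. The 4 were the immunoproteasome subunits PSMB9 (-1.05 ± 0.080) and PSMB8 (-1.02 ± 0.20), the class I light chain B2M (-0.94 ± 0.14) and the peptide transporter TAP1 (-0.55 ± 0.077). The interferon genes of that list had no called interaction. IFNB1 was near background in every group (interaction -0.11, adjusted p = 0.22), and IFNL1, which rose by 0.75 with both cDNAs, had 0.064 (adjusted p = 0.76).

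Averaged over the 40 members, interferon genes stood at 7.34 to 7.54 in the control arrays, 8.83 to 8.90 with YAP/TAZ, 9.24 to 9.30 with ESR1 and 9.65 to 9.71 with both. The knockdown arrays, which received ctrl cDNA, averaged 9.06 and 9.19. In 36 of the 40 genes the 3 control arrays lay beyond all 15 others, a share that is 7.38% over all genes tested. Over the 304 saturated genes it was 236 (77.6%). The saturated rule already asks that the YAP/TAZ, ESR1 and both-cDNA groups differ from control in 1 direction. In 301 of the 304 the control arrays lay beyond the other 9 shNT arrays, so the count of 236 carries no test. What sets the control arrays apart from the other 5 groups was not tested.

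The interferon-stimulated response element letters were in the promoter windows of 29 of 109 saturated genes with a negative interaction (26.6%), and of 433 of all 14228 genes with a window (3.04%). In the interferon response list they were in 20 of 32 windows. The sets overlap, since 31 of the 40 list members measured were saturated with a negative interaction. The counts are therefore not separate observations, and the share outside the list was not counted. The TEAD letters were in 11.6% of all windows, 14.9% and 11.5% of those of reversed genes with a negative and a positive interaction, 16.5% of those of saturated genes with a negative interaction and 7.74% of those of genes that rose only with both cDNAs. In the YAP/TAZ target list they were in 6 of 18 windows. The estrogen response element (GGTCA, any 3 bases, TGACC) was in 3 of all windows and in 0 of those of the 3 patterns. These counts describe letters in a short window.

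Saturated falls were weaker. DCN, a matrix proteoglycan, read 6.02, 6.77 and 7.21 in the control arrays and 4.45 to 5.26 in the other 9 shNT arrays, all near or under background. Its fitted interaction of 1.02 ± 0.27 therefore says nothing of saturation, since a level at background cannot fall further. TSPAN5, a tetraspanin, had 0.85 ± 0.13. It read 8.89, 9.08 and 9.08 in the control arrays, 8.12, 8.18 and 8.20 with YAP/TAZ, 7.76, 7.66 and 7.95 with ESR1, and 7.64, 7.85 and 7.86 with both. The ESR1 and both-cDNA arrays of TSPAN5 overlapped. The glypican GPC6 (0.73 ± 0.16), C18orf54 (0.72 ± 0.16), TNFAIP8L1 (0.71 ± 0.15) and PHF7 (0.71 ± 0.077) made up the rest of those named.

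Cholesterol synthesis genes rose with the combination and not with either cDNA. Of 16 measured, 14 were called positive and 0 negative, beside 11.4% and 7.68% of all genes, with a median of 0.70. With single cDNAs 5 (YAP/TAZ) and 6 (ESR1) members fell and 0 rose, and with both 12 rose and 1 fell. Of all genes 3.84% fell with YAP/TAZ and 11.9% with ESR1, and with both 14.7% changed each way. INSIG1, a sterol-regulated brake on the pathway's transcription factors, read 8.34, 8.42 and 8.34 in the control arrays, 8.01, 7.85 and 7.95 with YAP/TAZ, 8.21, 8.14 and 8.14 with ESR1, and 9.74, 9.75 and 9.84 with both. Both single-cDNA groups were below the control arrays and the combination above (interaction 2.05 ± 0.066; limma, adjusted p = 4.6e-12). The synthase HMGCS1 had 1.97 ± 0.094 and the mevalonate kinase MVK 1.32 ± 0.14, both reversed. The reductase DHCR7, at 1.05 ± 0.10, changed only with both cDNAs. The list mean was 9.28 to 9.38 in the 6 single-cDNA arrays, 9.45 to 9.54 in the control arrays and 9.95 to 9.99 with both. In the knockdown arrays it was 9.90 to 9.97, so this list too sides with the division on the first component.

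**Figure D4:**
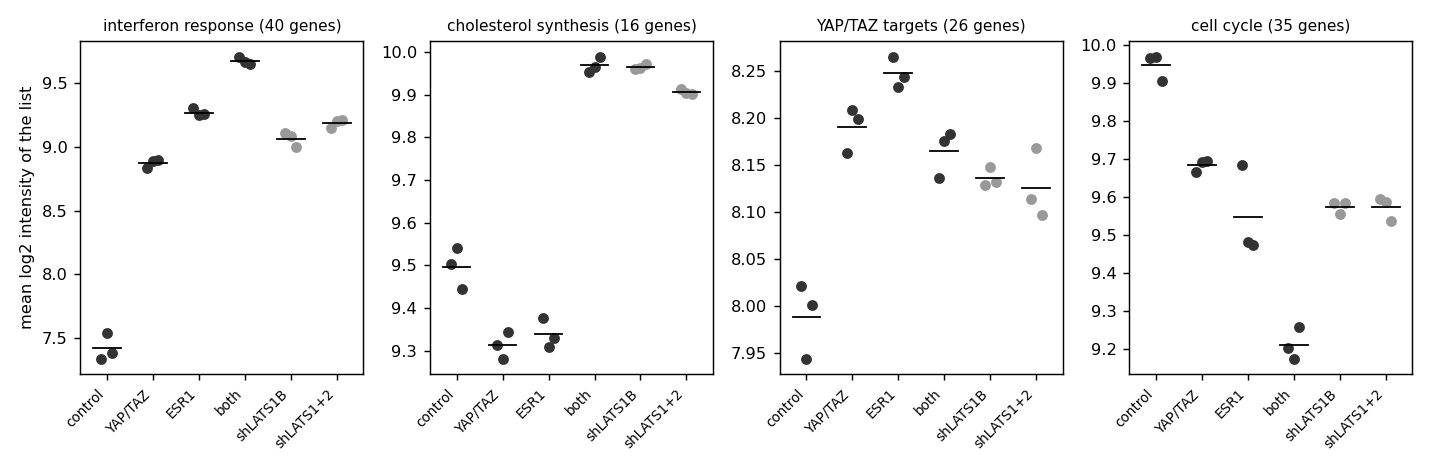
Mean log2 intensity over the measured members of 4 gene lists on each array, with a line at each group mean; the shNT arrays are black and the knockdown arrays with ctrl cDNA grey. Vertical axes differ between panels and do not start at 0. Interferon genes are lowest in the control arrays (7.34 to 7.54), cholesterol genes drop with either cDNA and rise with both (9.95 to 9.99), and cell cycle genes step down to 9.17 to 9.26.

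The 154 amplified genes included AQP3, a water and glycerol channel. It read 6.73, 6.53 and 6.53 in the control arrays, 6.73, 6.71 and 6.72 with YAP/TAZ, 6.90, 7.04 and 7.15 with ESR1, and 10.14, 10.24 and 10.28 with both (interaction 3.07 ± 0.10; limma, adjusted p = 5e-12). GDF15, a stress cytokine and p53 target, rose by 0.61, 0.59 and 2.67 (1.47 ± 0.057). CD14, a lipopolysaccharide co-receptor also used as a monocyte marker, rose by 0.62, 0.49 and 2.01 (0.90 ± 0.14). Of 20 leukocyte and endothelial markers 4 were called positive and 1 negative (20% and 5%, beside 11.4% and 7.68% of all genes). The list mean lay between 5.54 and 5.60 in the other 9 shNT arrays and at 5.71 to 5.72 with both. Amplified falls included the basal keratin KRT14 (-0.73, -0.78 and -2.27 from control, interaction -0.77 ± 0.19), which on the linear scale fell less than the sum (1.06 of the additive level), and the actin-binding protein TAGLN (-0.60, -0.45 and -2.22, interaction -1.17 ± 0.17).

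The genes of the cDNAs themselves showed interactions too. ESR1 (probe set 8122843) read 5.65, 5.55 and 5.37 in the control arrays, 5.77, 5.83 and 5.60 with YAP/TAZ, 6.34, 6.52 and 6.53 with ESR1 cDNA, and 6.07, 6.07 and 5.93 with both. It was therefore lower with both cDNAs than with ESR1 cDNA alone (-0.44 ± 0.081; limma, adjusted p = 0.00059), and the interaction was -0.65 ± 0.11. The same probe set averaged 6.37 and 6.40 in the shLATS1B and shLATS1+2 arrays, which received ctrl cDNA, so its level does not by itself show the cDNA. WWTR1 (probe set 8091422) was reversed. It read 9.73, 9.57 and 9.42 in the control arrays, 9.39, 9.47 and 9.47 with YAP/TAZ, 9.44, 9.11 and 9.07 with ESR1, and 9.90, 10.05 and 10.03 with both (0.92 ± 0.13). YAP1 (probe set 7943398) had 0.37 ± 0.11, and its values with both cDNAs (10.78, 10.92 and 10.94) overlapped the control arrays (10.88, 10.82 and 10.83). Neither YAP1 nor WWTR1 was higher in the YAP/TAZ arrays than in the control arrays, so these probe sets do not show the YAP/TAZ cDNA. Whether they read the transfected sequence was not tested. LATS1 had 0.64 ± 0.11, with a rise only with both cDNAs (0.47 ± 0.078), and LATS2 had 0.03 ± 0.089 (adjusted p = 0.87).

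Many cell cycle genes fell with each cDNA, and more of them with both. Of 35 measured, 17 fell with YAP/TAZ, 26 with ESR1 and 30 with both, where 3.84%, 11.9% and 14.7% of all genes fell. The list medians were -0.28, -0.39 and -0.77. A called negative interaction was found for 5 members and a positive one for 1, which is 14.3% and 2.86% of the list beside 7.68% and 11.4% of all genes. ESR1 array 1 stood apart here, at a list mean of 9.68 beside 9.47 and 9.48 in the other ESR1 arrays. Without it 6 members had a called positive interaction. The cyclin CCNB1 fell by 0.27 with YAP/TAZ, dropped by 0.24 with ESR1 and decreased by 1.07 with both (interaction -0.56 ± 0.095), and CDC25C, a phosphatase that starts mitosis, had 0.48 ± 0.096. Not all called members fell with each cDNA. CCNE2, another cyclin, rose by 0.51 with ESR1, was not called against control with both and was reversed (-0.91 ± 0.17). PCNA changed only with both cDNAs (-0.38 from control, interaction -0.56 ± 0.13).

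The counts of the remaining lists are to be read against 11.4% positive and 7.68% negative interactions over all genes. Epidermal differentiation genes had 10 called negative interactions and 1 positive among 28. They were led by the elastase inhibitor PI3 (-2.79 ± 0.16), the calcium-binding protein S100A8 (-2.59 ± 0.32) and the envelope crosslinker TGM1 (-1.75 ± 0.14). S100A8 rose by 2.12 with YAP/TAZ, 1.38 with ESR1 and 0.92 with both. NF-kB and cytokine genes had 9 negative and 5 positive among 27, with the acute phase genes SAA1 (-2.25 ± 0.13) and SAA2 (-1.68 ± 0.078) reversed and the chemokine CXCL11 saturated (-2.23 ± 0.29). SAA1 and SAA2 are near-identical copies, so their values may not be separate. Estrogen response genes had 6 positive and 3 negative among 28, with a median of 0.0437; CELSR2, a cadherin, had 1.04 ± 0.16 and the transporter SLC7A2 -1.28 ± 0.088. Luminal genes had 7 and 5 among 23, with the surface antigen CD24 at -1.96 ± 0.085 and the pioneer factor FOXA1 at 0.85 ± 0.086. Hippo components had 7 and 5 among 27 (11 positive without ESR1 array 1), where the TEAD partner VGLL3 had -1.61 ± 0.15.

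Mesenchymal and matrix genes had 4 positive and 5 negative among 24 (8 negative without ESR1 array 1), with THBS1, a matrix glycoprotein, at -1.45 ± 0.10 and SPARC, a collagen-binding protein, at 1.40 ± 0.066. Stress genes of the unfolded protein and amino acid list had 5 and 1 among 22 (8 and 3 without ESR1 array 1), led by PHGDH, which opens serine synthesis (1.06 ± 0.16), and the pseudokinase TRIB3 (0.85 ± 0.099). p53 targets had 5 and 3 among 18 (27.8% and 16.7%). Ion and water transport genes had 5 and 4 among 21, where the kinase SGK1, which acts on the sodium channel, had -1.54 ± 0.11. Basal and myoepithelial genes had 3 and 5 among 16, and fibroblast and fat cell markers 1 and 1 among 14 (7.14% each, near the share of all genes).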

How the data were processed

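Gene expression was measured on Affymetrix whole-transcript arrays, starting from 100 ng of RNA per array. The values the authors deposited are log2 intensities for 32321 probe sets, between 3.56 and 13.75. The submitters' processing notes list affy without saying for which step. The sources used here do not give the background correction, normalization, summary method or genome build. The medians of the arrays ran from 5.49 to 5.62, and the values were tested without further scaling. The number of arrays limits the precision. Nothing in the labels says that replicates were separate cultures, and the p-values then reflect only differences among these samples, which may be technical.

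Probe sets with exactly 1 symbol in the platform annotation (19158; 1388 had several and 11775 none) were renamed through RefSeq (GRCh38.p14; 19128 matched), and the brightest was kept for each of 18404 genes, a choice made for 637. All 18 arrays entered 1 model with a mean per group (R 4.3.3, limma 3.58.1; lmFit, contrasts.fit, eBayes; 12 residual degrees of freedom plus 3.94 from moderation). Tests were two-sided with Benjamini-Hochberg adjustment over all genes, called under 0.05. The fit was tested on simulated data. Each ± gives the moderated standard error. Replicate numbers did not pair the arrays: same-numbered arrays of different groups had a median correlation of deviations of -0.18.

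Named genes are the targeted or transfected ones, the 6 largest interactions of each sign and pattern, and up to 4 called members of each gene list; others were chosen after their values were seen. The members, lists and patterns were chosen with earlier results of these data known.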

Additional observations from a re-analysis of the deposited data

Results flagged for a closer look

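The interaction is itself a test of whether a cDNA's step differs between backgrounds, and 3512 genes passed it, of which 583 had a step called in opposite directions. Each gene named above with a called interaction differs in this sense. The largest of each pattern and sign were SLC6A14 (log2 interaction 4.14) and PLD5 (-1.67) among genes changed only with both cDNAs, GPX2 (3.71) and ID2 (-5.09) among reversed genes, and DCN (1.02) and IFIT1 (-3.50) among saturated genes. DCN was near background in its 3 cDNA groups, so its value is no measure of saturation. Groups of 3 arrays are too small to test single arrays as outliers.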

How the results depend on the processing

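Over 20 alternatives on the log2 scale, 12 of which leave out 1 array, none of the 95 called among 96 named genes changed the sign of its interaction, and 85 of the 96 kept their side of the threshold throughout; those that lost it were TEK, YAP1, TAP1, PCNA, CCNB1, CDC25C, HERPUD1, SHMT2, CD44, SFN and PECAM1. When every call also had to be at least 1.5-fold, 1277 genes were called for the interaction, 400 only with both cDNAs, 64 reversed and 73 saturated. Leaving out 1 array gave 2593 to 5607 interaction calls, 872 to 1494 genes only with both cDNAs, 420 to 1335 reversed and 218 to 400 saturated; the highest interaction and reversed counts, 5607 and 1335, came without ESR1 array 1. The replicate block gave 3311 interaction calls, 1212, 537 and 277 in the patterns, and the replicate numbers pair nothing in the labels. Signals near background limit what the values show for SLC6A14, CYP24A1, FAP and DCN. Levels close to 5.21 were also those of SCNN1G (5.29) and ID2 (5.38) with both cDNAs. The same holds for GPX2 with YAP/TAZ (5.32), AKR1B10 and PHF7 with ESR1 (5.38 and 5.41) and IFIT1 in control array 1 (5.14). The sizes of their interactions are therefore not exact.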

Other observations

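A group outside the 3 patterns was called against control with the ESR1 cDNA only. In 548 genes called for the interaction, ESR1 cDNA gave a call against control, 348 lower and 200 higher, while neither YAP/TAZ cDNA nor both cDNAs did, and no step turned. They lie among the 652 genes (3.54% of those tested) with other combinations. A missing YAP/TAZ call does not show that YAP/TAZ left a gene unchanged. That step called 7.00% of all genes, beside 18.9% for ESR1. EGFR, the epidermal growth factor receptor, rose with ESR1 (0.36) and stood 0.00 from control with both (interaction -0.60). On the linear scale EGFR averaged 726 in the control arrays, 858 with YAP/TAZ and 930 with ESR1. MAP4K4, a kinase that can act upstream of LATS1 and LATS2, fell by 0.55 with ESR1 and was -0.09 from control with both (interaction 0.80). Its log2 change with YAP/TAZ was -0.33, which did not pass (limma, adjusted p = 0.066).

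Saturation was judged on the log2 scale. On the linear scale, a setting added after the data had been seen, IFIT1 averaged 52.1 in the control arrays, 801 with YAP/TAZ, 1656 with ESR1 and 2336 with both, which is 0.971 of the sum of the single changes added to control. OAS2 reached 0.799 of that sum and IFITM1 0.665. Of the 138 saturated genes with a negative interaction 128 fell short of the linear sum and 10 did not, with a median ratio of 0.824. Of the 47 amplified genes with a negative interaction, 46 were below the linear sum and 1, KRT14, was above it (ratio 1.06).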
